A study of Rattus norvegicus with 18 samples.

Results

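Lixisenatide is an agonist of the receptor for glucagon-like peptide-1 (GLP-1), a gut hormone that raises insulin secretion when glucose is high. The question addressed here was whether retinae of diabetic rats differed in their RNA when the animals had received this drug. Of the 18 libraries of the study, the 6 titled as lixisenatide-treated diabetic retinae (DC + Lixi) were compared with the 6 titled as diabetic retinae with no lixisenatide in the title (DC). Membership was taken from the titles alone, so no measured value decided the group of a library. The comparison itself was chosen with earlier results of these data known. The remaining 6 libraries, from age-matched healthy controls (NC), are given as a level beside the diabetic groups.

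All 18 animals were male Wistar rats aged 8 weeks at the start, and each gave 1 library from RNA of whole retina. The 12 diabetic animals had received 35 mg/kg of intravenous streptozotocin, a toxin taken up by insulin-producing beta cells, and counted as diabetic when blood glucose exceeded 14 mmol/L 1 week later. This is a model of hyperglycemia with loss of insulin, not of type 2 diabetes. DC + Lixi animals were injected under the skin with 150 µg/kg lixisenatide on 5 days a week from week 1, and all retinae were taken at 12 weeks. The labels of DC and NC animals give placebo as treatment. Animals are identified by the numbers in the titles, 386, 390, 396, 407, 425 and 430 in DC and 388, 401, 403, 418, 419 and 428 in DC + Lixi.

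The retina is a layered tissue in which rods, by far the most numerous cells in rodents, pass signals through bipolar, amacrine and horizontal cells to ganglion cells. Müller glia span the layers and, with neurons, astrocytes, microglia, endothelium and pericytes, form the neurovascular unit that is damaged in diabetic retinopathy. In whole retina, fewer cells of a type and less RNA per cell cannot be told apart. The files identify genes by Ensembl number only. None of the 32623 numbers could be paired with a gene name through the reference table, so genes are grouped by level and length, the markers of retinal cell types could not be checked, and no promoter or protein sequence could be matched. Counts summed to between 28311690 and 32410790 per DC library and between 28954210 and 39131682 per DC + Lixi library.

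Of 16525 genes tested, 0 were called at an adjusted p under 0.05 with edgeR's quasi-likelihood test (0% called), and the smallest adjusted p was 0.137. At an unadjusted p under 0.05, 2047 genes (12.4%) differed in edgeR and 2203 (13.3%) in limma-voom, which also called 0 genes after adjustment. In edgeR 959 of these genes (5.8%) were higher and 1088 (6.58%) were lower in DC + Lixi. The median size of the difference was 1.11-fold for the higher and 1.22-fold for the lower genes. When libraries were scaled by their totals alone the division became 500 higher and 1609 lower, so the balance of directions depended on the scaling. The median over all genes moved from a log2 fold change of -0.0047 to -0.032 with it.

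The precision of the comparison bounds what could have been missed. For 13083 genes, or 79.2% of those tested, the 95% interval of the difference lay within 1.5-fold in both directions. For 8460 genes it lay within 1.2-fold, and for 15176 within 2-fold. The median standard error of a log2 fold change was 0.081, against a median absolute log2 fold change of 0.078. An estimate of at least 1.5-fold was reached by 139 genes upward and 391 downward, of which 71 and 202 had an unadjusted p under 0.05. For at least 2-fold these numbers were 41 and 84 genes, with 24 and 48 at an unadjusted p under 0.05. Over all genes tested, the larger estimates were thus more often downward in the treated animals, but none passed the adjustment with edgeR. The downward excess lay mainly in weakly expressed genes, whose numbers are given with the level classes below.

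DESeq2 gave another count on the same data. Its calls were 56 genes with more and 44 with less RNA after lixisenatide (0.343% and 0.269% of the 16338 genes with an adjusted p, 0.612% together), and 2199 of 23464 genes (9.37%) had an unadjusted p under 0.05. The 100 called genes were expressed at a median of 18.04 FPKM (fragments per kilobase of gene, scaled to the size of the library), and 7 were below 1 FPKM. The genes called higher had a median change of 1.22-fold and those called lower of 1.45-fold. At least a 2-fold change was estimated for 0 of the higher and 7 of the lower genes. Of the 97 that edgeR also tested, 97 had an unadjusted p under 0.05 there, with adjusted p-values of 0.137 to 0.233. In 34 of these 97 genes the treated and untreated animals did not overlap, against 0.623% of all genes tested by edgeR. The called genes that edgeR did not test were not examined for overlap. Since the calls rest on the same difference, less overlap among them follows from their choice.

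Across all genes tested, the groups did not overlap in CPM (counts scaled to a common library size, after TMM) for 65 genes higher (0.393%) and 38 genes lower (0.23%) in DC + Lixi, 0.623% together. The 65 higher genes were mostly of middle to high level, at a median of 38.4 FPKM, and their median difference was 1.14-fold. The 38 lower genes had a median of 4.33 FPKM, with 28 of them under 10 FPKM, and a median difference of 1.23-fold. With library totals as the scale the numbers were 40 higher and 51 lower. Without DC animal 425 they were 206 and 193, though a smaller group is also easier to clear.

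Of the genes expressed at 1 FPKM or more, those with the smallest p in each direction, 2 higher and 2 lower, are described by animal. Since they were chosen by this difference, little overlap between treated and untreated animals follows from the choice. ENSRNOG00000005479 led the genes that were higher in treated animals. Its CPM ran from 55.2 to 61.2 (median 59.3) in DC + Lixi, from 47.1 to 52.7 (median 51.0) in DC and from 55.7 to 61.6 (median 58.2) in NC. Every treated animal stood above every untreated diabetic animal, and 5 of 6 lay within the NC range. Treated animals averaged 58.8 ± 2.42 CPM (SD, n = 6) against 50.2 ± 2.43 CPM (SD, n = 6) in untreated diabetic animals. This was a 1.17-fold difference, and its log2 fold change of 0.23 had a standard error of 0.039 and an edgeR adjusted p of 0.137. In DESeq2 the adjusted p of this gene was 0.00075.

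ENSRNOG00000003209 was the next of the higher genes. It ran from 18.1 to 21.3 CPM (median 20.3) in DC + Lixi, from 15.0 to 17.5 (median 15.6) in DC and from 16.3 to 21.7 (median 19.8) in NC. The 6 treated animals again lay above the 6 untreated diabetic animals, the highest of which was 425. Its log2 fold change of 0.33, or 1.26-fold, had a standard error of 0.069 and an edgeR adjusted p of 0.189, and DESeq2 gave an adjusted p of 0.0050.

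ENSRNOG00000000606 led the genes that were lower in treated animals. Its CPM ran from 90.5 to 107.0 (median 97.0) in DC + Lixi, from 98.5 to 178.1 (median 153.0) in DC and from 92.7 to 119.7 (median 110.0) in NC. The lowest DC value was that of animal 425, which stood among the treated animals, while the next lowest was 131.4 in animal 407. The deposited table had no count for this gene in animal 425, and 2730 counts were restored from its FPKM of 20.7. DC exceeded DC + Lixi 1.49-fold, and the log2 fold change of -0.58 had a standard error of 0.10 and an adjusted p of 0.137 in edgeR and 0.00029 in DESeq2. Without animal 425 the log2 fold change was -0.67 with an adjusted p of 0.00038 in edgeR, and with the missing count left at 0 it was -0.40 with an adjusted p of 0.829.

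ENSRNOG00000027171 was the next of the lower genes. It ran from 20.1 to 24.7 CPM (median 20.5) in DC + Lixi, from 24.3 to 30.1 (median 26.8) in DC and from 19.6 to 22.8 (median 20.3) in NC. Animal 401 was the single treated animal that reached the DC range, and 5 of 6 lay below it. DC exceeded DC + Lixi 1.27-fold, and the log2 fold change of -0.34 had a standard error of 0.064 and an adjusted p of 0.164 in edgeR and 0.0032 in DESeq2. With 1 surrogate variable in the model it was -0.40 with an adjusted p of 0.049, and it was then the only gene called.

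**Figure D1:**
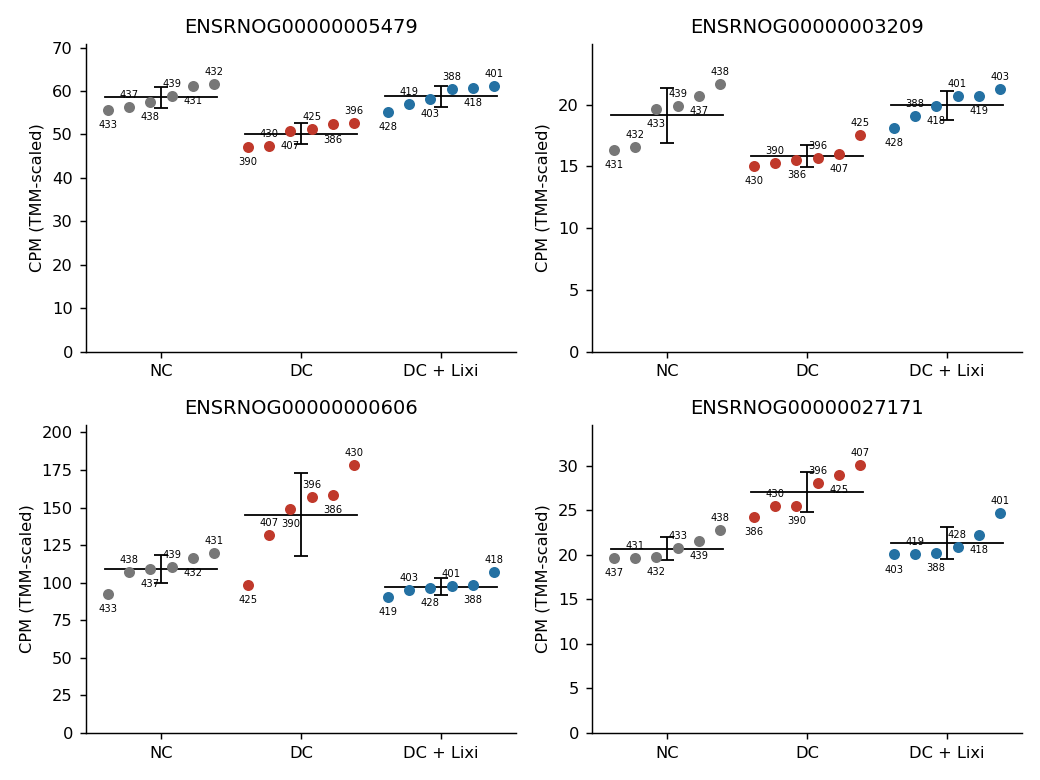
CPM (TMM-scaled, y axis from 0) of the 4 leading genes by p at 1 FPKM or more, 2 higher (top) and 2 lower (bottom) in DC + Lixi than in DC. Each point is 1 animal with its number, and lines and bars are the mean and SD of 6 animals. In the top genes all 6 treated animals lie above all 6 DC animals, and in ENSRNOG00000000606 the DC animal 425 lies at 98.5 CPM among the treated animals. The genes were chosen by this difference, so little overlap follows from the choice.

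Beside the treatment comparison, the same 4 genes had these differences between DC and NC in the same fit, which shares the DC libraries. The log2 fold change of DC over NC was -0.22 for ENSRNOG00000005479 (adjusted p = 0.0022) and -0.27 for ENSRNOG00000003209 (adjusted p = 0.014), both from edgeR. It was 0.41 for ENSRNOG00000000606 (adjusted p = 0.012) and 0.39 for ENSRNOG00000027171 (adjusted p = 0.0016), also from edgeR. Between DC + Lixi and NC, the log2 fold changes were 0.0065, 0.060, -0.17 and 0.045 in the same order, with adjusted p-values from edgeR of 0.952, 0.678, 0.382 and 0.758. Since the DC libraries enter both the treatment and the diabetes comparison, opposite signs between these 2 are not independent observations. The 4 genes were also chosen by their p in the treatment comparison, which favors genes with extreme DC values. Their p-values for DC over NC, and the nearness of DC + Lixi to NC, are therefore not separate evidence.

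The direction of the differences changed with the level of a gene. Among 2682 genes with a mean below 1 FPKM over the 12 diabetic libraries, 54 (2.01%) were higher and 202 (7.53%) were lower in DC + Lixi at an unadjusted p under 0.05. Among 5996 genes of 1 to 10 FPKM, 153 (2.55%) were higher and 549 (9.16%) were lower. The genes of 10 to 100 FPKM went the other way, with 645 of 7204 (8.95%) higher and 319 (4.43%) lower. Of the 643 genes at 100 FPKM or more, 107 (16.6%) were higher and 18 (2.80%) were lower. The median log2 fold change was -0.10, -0.036, 0.018 and 0.044 from the lowest to the highest class. With library totals as the scale, the genes under 10 FPKM had 132 higher and 982 lower, and those at 10 FPKM or more had 368 higher and 627 lower, so that the majority of the latter turned downward. The same turn was seen with limma on log2(FPKM + 1), with 382 higher and 610 lower genes at 10 FPKM or more. With 1 surrogate variable in the model the directions stayed and the pattern was weaker. Genes under 10 FPKM then had 239 higher and 455 lower, in place of 207 and 751, and their median log2 fold change was -0.025 in place of -0.048. Genes at 10 FPKM or more had 537 higher and 280 lower, in place of 752 and 337, and their median was 0.0077 in place of 0.020. The surrogate variable was estimated from the same libraries and was highest in DC animal 390 (0.472) and lowest in treated animal 401 (-0.457). Those animals also had the highest and the lowest level index of the diabetic animals, described below. A weaker pattern with this variable in the model is therefore not an independent check.

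The weakly expressed genes also carried the widest errors. The median standard error of the log2 fold change was 0.26 below 1 FPKM, 0.10 from 1 to 10 FPKM, 0.054 from 10 to 100 FPKM and 0.056 above. The 95% interval lay within 1.5-fold for 713 genes (26.6%) of the lowest class, against 6961 (96.6%) of the class of 10 to 100 FPKM. Most genes below 1 FPKM could therefore hold a 1.5-fold difference that was not detectable at this depth and number of animals. Estimates of at least 1.5-fold were reached by 65 genes upward and 238 downward below 1 FPKM, and by 46 and 125 from 1 to 10 FPKM. From 10 to 100 FPKM they were reached by 26 upward and 21 downward, and at 100 FPKM or more by 2 and 7. With an unadjusted p under 0.05 in edgeR there were 29 upward and 114 downward below 1 FPKM, and 21 upward and 13 downward from 10 to 100 FPKM.

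**Figure D2:**
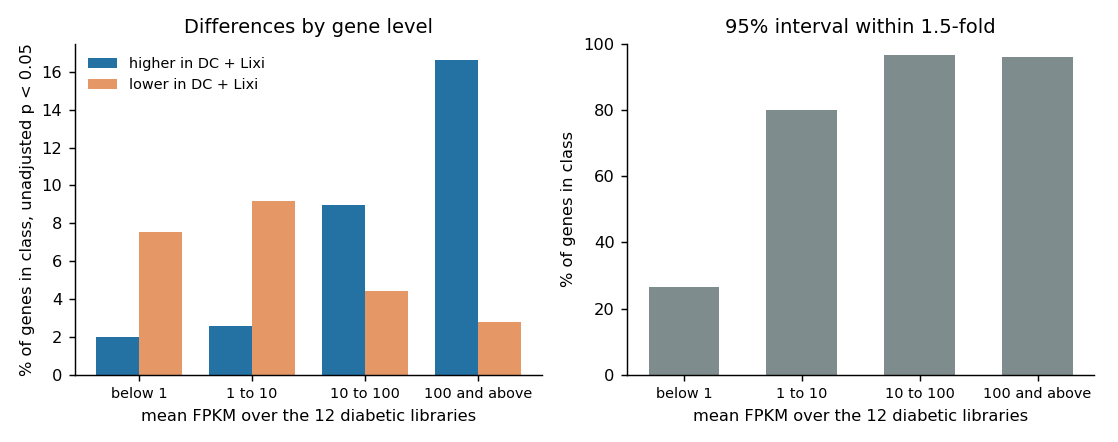
Left, percentage of the genes of each level class (x axis, mean FPKM over the 12 diabetic libraries) that were higher or lower in DC + Lixi at an unadjusted p under 0.05 (edgeR). Right, percentage of each class whose 95% interval of the difference lay within 1.5-fold. With TMM scaling lower genes prevail below 10 FPKM (7.53% and 9.16%) and higher genes above (8.95% and 16.6%), where library totals as the scale turn the majority to lower (368 higher, 627 lower). An interval within 1.5-fold was reached by 26.6% of the lowest class.

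A difference between 2 sets of genes within a library does not depend on how libraries are scaled against each other, so the pattern was also measured per animal. The median deviation of log2 CPM from the mean of the 12 diabetic libraries was taken for genes under 10 FPKM and for genes at 10 FPKM or more, and the latter was subtracted. This level index ran from -0.059 to 0.127 (median 0.050) in untreated diabetic animals, from -0.106 to 0.012 (median -0.0090) after lixisenatide and from -0.050 to 0.035 (median -0.017) in NC. The diabetic groups overlapped through DC animal 425 alone, since the next lowest DC animal, 407, stood at 0.015, above every treated animal. The means of treated and untreated animals differed by -0.067 (two-sided exact permutation p = 0.050, and 0.224 when adjusted over 9 whole-library measures), which did not pass the adjustment.

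A related measure, the share of counts that fell on genes under 10 FPKM, had a lower mean in treated than in untreated diabetic animals. This share has the same libraries and boundary as the level index, so it is not separate evidence. It ran from 7.15% to 7.97% (median 7.64%) in untreated diabetic animals, from 6.89% to 7.41% (median 7.28%) in DC + Lixi and from 7.17% to 7.92% (median 7.38%) in NC. Again animal 425 alone of the DC animals reached the treated range. DC averaged 7.64% ± 0.298 (SD, n = 6), and DC + Lixi 7.24% ± 0.183 (SD, n = 6) (two-sided exact permutation p = 0.019, and 0.175 when adjusted). With each of the 12 animals left out in turn, the difference in the level index ranged from -0.088 to -0.051, with an adjusted p of 0.019 to 0.409 by exact permutation. The difference in the share ranged from -0.50 to -0.33 percentage points, with an adjusted p of 0.019 to 0.351 by exact permutation. Each passed the adjustment only without animal 425, the animal through which the groups overlapped, so that its removal left them separate. The differences nearest to 0 came without DC animal 390 for the index and without treated animal 401 for the share. Both measures, and the boundary of 10 FPKM, were chosen after the level classes had been seen.

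The RNA integrity number, a score of how intact the RNA is, moved with the groups. It ran from 9.2 to 9.5 (median 9.35) in DC, from 8.4 to 9.4 (median 8.95) in DC + Lixi and from 8.6 to 8.9 (median 8.8) in NC. Only animal 403, at 9.4, of the treated animals reached the DC range. The difference of -0.45 had an unadjusted p of 0.013 and an adjusted p of 0.052 over the 4 measures of the sample sheet, by a two-sided exact permutation test, and with 1 animal left out it ranged from -0.55 to -0.35, with an adjusted p of 0.017 to 0.104 by exact permutation. It passed the adjustment only without animal 403, the treated animal through which the groups overlapped. With the integrity number as a covariate, 1116 genes were at an unadjusted p under 0.05 in place of 2047, and 0 were called by edgeR. The median standard error rose from 0.081 to 0.112, and the median absolute log2 fold change from 0.078 to 0.092. Genes under 10 FPKM then had 138 higher and 404 lower, and those at 10 FPKM or more 390 higher and 184 lower, the same majority in each class as without the covariate. With the covariate, the log2 fold changes of the 4 genes described by animal were 0.25, 0.39, -0.53 and -0.38, in the order above. Their edgeR adjusted p was 0.625 each, and 0.534 to 0.775 with the covariate over the 12 diabetic libraries alone. The part of RNA integrity in the remaining differences was not tested.

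**Figure D3:**
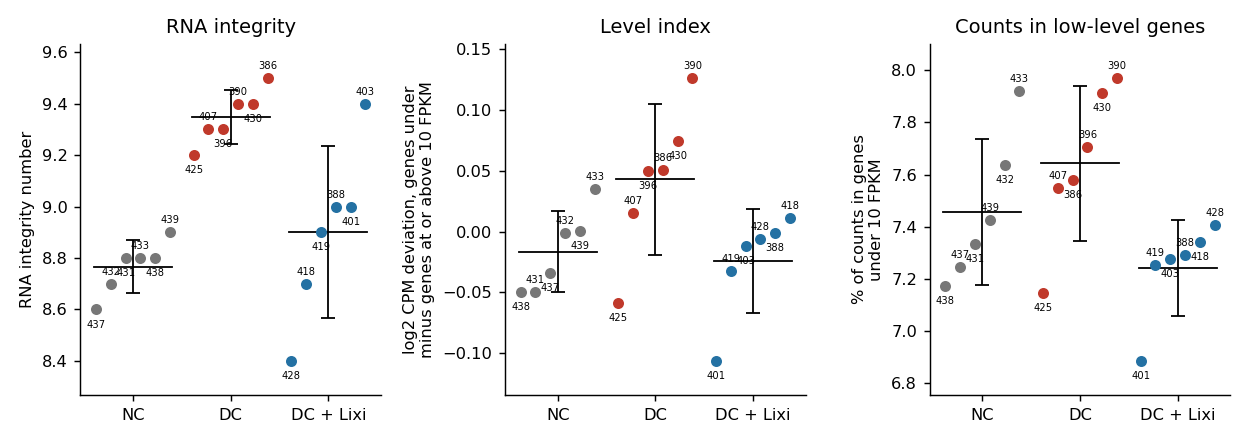
RNA integrity number (left), level index in log2 units (middle) and percentage of counts in genes under 10 FPKM (right) in each animal of NC, DC and DC + Lixi, with the mean and SD of 6 animals. The y axes do not start at 0. DC animals lie at integrity numbers of 9.2 to 9.5, and animals 425 (DC) and 401 (DC + Lixi) lie lowest of their groups on the middle and right plots.

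By gene length the medians lay closer to 0 than by level. Lengths were taken from the ratio of count to FPKM, since the FPKM values had been scaled by the count totals. The median log2 fold change was -0.0062 for the 2374 genes under 1 kb, -0.000074 for 5208 genes of 1 to 2 kb, -0.0043 for 6178 genes of 2 to 4 kb and -0.011 for 2765 genes of 4 kb and longer. Among the longest genes 155 (5.61%) were higher and 241 (8.72%) were lower at an unadjusted p under 0.05, and among the shortest 106 (4.47%) were higher and 103 (4.34%) lower. Per library, the median deviation of genes under 1 kb minus that of genes of 4 kb and longer ran from -0.036 to 0.067 in DC and from -0.039 to 0.066 in DC + Lixi. The means of this measure differed by 0.0033 (two-sided exact permutation p = 0.898), and by -0.0076 to 0.0149 with 1 animal left out, the lowest without treated animal 428 and the highest without DC animal 430.

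Other properties of the libraries overlapped between the groups. RNA concentration was 485.8 to 595.5 ng/µl (median 524.5) without and 397.0 to 745.0 ng/µl (median 609.9) with lixisenatide (two-sided exact permutation p = 0.398). The treated animals spread over a wider span on both sides of DC. The number of genes at 1 FPKM or more was 13826 to 14272 (median 14040) without and 13691 to 13996 (median 13927) with lixisenatide (two-sided exact permutation p = 0.089, and 0.234 when adjusted). With 1 animal left out this difference, -146.2 genes in the means, ranged from -189.6 to -100.4 with an adjusted p of 0.039 to 0.409 by exact permutation, and it passed only without DC animal 425. The 10 genes with the most counts took 9.18% to 11.1% of all counts without and 9.92% to 10.7% with lixisenatide (two-sided exact permutation p = 0.286).

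The animals of each group varied among themselves about as much as they differed across groups. The root mean square difference in log2 CPM over the 13843 genes at 1 FPKM or more was 0.436 (0.395 to 0.511) for the 15 pairs within DC, 0.463 (0.394 to 0.521) for the 15 pairs within DC + Lixi and 0.444 (0.377 to 0.573) for the 36 pairs between them, given as median and range. Both the nearest and the farthest pair of all were thus 1 treated and 1 untreated animal, the kind with the most pairs. The SD per gene had a median of 0.139 in DC and 0.135 in DC + Lixi on the log2 scale, and it was larger in DC + Lixi for 8041 of 16525 genes (48.7%). Without animal 425 the median SD of DC was 0.125 and the share 55.7%, and without animal 401 the median SD of DC + Lixi was 0.128 and the share 44.9%.

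On the main axis of variation among the 12 libraries, treated and untreated animals overlapped. On the first principal component, which held 22.5% of the variance, DC animals ran from -0.203 to 0.146 (median -0.078) and DC + Lixi animals from -0.096 to 0.282 (median 0.075). Treated animals 401, 418 and 419 stood at 0.282, 0.170 and 0.170, and animals 388, 403 and 428 at -0.021, -0.095 and -0.096. Of the DC animals, 425 stood at 0.146 and the others from -0.203 to -0.048. The means differed by 0.137 (two-sided exact permutation p = 0.106, and 0.234 when adjusted over 9 whole-library measures). On the second and on the third component the means differed by -0.0019 and -0.039 (two-sided exact permutation p = 0.983 and p = 0.526). The components and pair distances were limited to genes at 1 FPKM or more after their values over all 16525 tested genes had been seen. Over all tested genes the first component held 19.4% of the variance, and the means differed by 0.169 (two-sided exact permutation p = 0.121). The median pair distance was then 0.577 within DC, 0.596 within DC + Lixi and 0.576 between them.

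**Figure D4:**
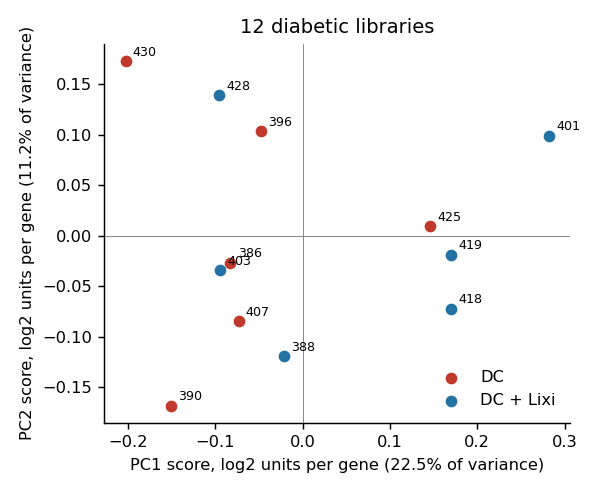
Scores of the 12 diabetic libraries on the first (x axis, 22.5% of variance) and second (y axis, 11.2%) principal components of log2 CPM over 13843 genes, in log2 units per gene, with animal numbers. Treated animals 401, 418 and 419 and DC animal 425 lie to the right at 0.146 to 0.282, and the other 8 animals of both groups lie at or below -0.021.

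The number of genes that differed moved with single animals. Leaving out each of the 12 diabetic animals in turn gave 1486 to 2856 genes at an unadjusted p under 0.05, the fewest without treated animal 401 and the most without DC animal 425. Without animal 425, 5 genes were called by edgeR, 2 higher and 3 lower, ENSRNOG00000000606 among them. The other 11 settings that left out 1 animal called 0 genes. Genes under 10 FPKM were more often lower than higher in each of these 12 settings, and with TMM scaling those at 10 FPKM or more were more often higher.

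**Figure D5:**
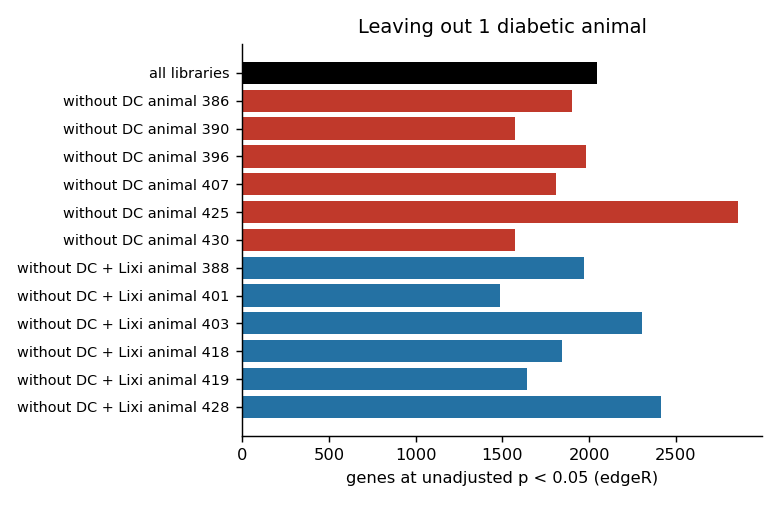
Number of genes (x axis, from 0) at an unadjusted p under 0.05 in DC + Lixi vs DC (edgeR) with all 18 libraries (black) and with 1 DC (red) or DC + Lixi (blue) animal left out. The count is 2047 with all libraries, 1486 without animal 401 and 2856 without animal 425.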

How the data were processed

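Libraries were read from 1 end over 50 bp. Array Studio served the authors for alignment, quantification and normalization against a gene model of the rat, and the submitters' processing notes name DESeq2. For aligner, genome build and annotation version, no name is given in the sources used here. The deposited estimated counts per gene carry no normalization, and fractions occur in 26.5% of the counts above 0. The deposited FPKM values divide counts by gene length and by the count total of the library. The authors' sample sheet holds the deposited RNA integrity number (a score), RNA concentration, an absorbance ratio of RNA purity and the count of alignments.

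Of 46805 cells without a count, 1504 were restored from FPKM (count over FPKM is a gene constant times a library constant, with a median misfit of 0.0014% and a 99th percentile of 9.65% on known counts) and the others set to 0, of which 2577 had an FPKM above 0. Restored counts made up 2.48% of the counts of animal 401 and at most 0.224% in the other diabetic animals. Counts were rounded, filtered by filterByExpr with 3 groups, scaled by TMM (0.967 to 1.05) and tested with edgeR 4.0.16 in R 4.3.3 in 1 fit over 18 libraries, with Benjamini-Hochberg adjustment over 16525 genes. Intervals used the quasi-likelihood standard error. DESeq2 1.42.0, limma 3.58.1 and sva 3.50.0 served as alternatives. Measures of 1 value per library were compared by exact permutation of 6 against 6, where the smallest two-sided p is 0.0022, and adjusted within 2 families, of 4 sample-sheet and 9 whole-library measures. Steps were tested on simulated data. The 9 whole-library measures were added after seeing the data. The libraries, tests and gene lists were chosen with earlier results of these data known. Named genes were those with the smallest p in each direction at a mean of 1 FPKM or more, 2 each because gene numbers could not be paired with names. For the same reason lists by gene symbol were not used here. Each animal gave 1 retinal RNA sample, and the labels name neither a batch nor a date. The library names hold a first index, a short tag that marks the library. No first index was shared by DC and DC + Lixi libraries, so index and treatment cannot be told apart.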

Additional observations from a re-analysis of the deposited data

Results flagged for a closer look

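Animal 401 of DC + Lixi stood apart from the other 5 treated animals in 3 measures, a frequency to be read against the chance of about 1 in 20 for each of the 34 groups examined. It had 13691 genes at 1 FPKM or more, where the others had 13886 to 13996. Its level index, the deviation of genes under 10 FPKM minus that of genes at or above it, was -0.106, where the others lay from -0.032 to 0.012. Genes under 10 FPKM took 6.89% of its counts, where the others had 7.25% to 7.41%. These measures overlap in what they count. The same library had the most alignments of the 12, at 68360387, and 2.48% of its counts had been restored from FPKM. The part of these in its position was not tested.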

How the results depend on the processing

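No paired analysis was possible because treated and untreated animals are separate and share no replicate number. The count of called genes was 0 in edgeR and in 12 of 14 alternatives. It was 100 with DESeq2, 1 with 1 surrogate variable and 0 to 5 when 1 animal was left out (5 without DC 425). The count at an unadjusted p under 0.05, 2047, became 1116 when RNA integrity entered the model and 969 when it did so over the 12 diabetic libraries alone. It ranged from 1486 to 2856 with 1 animal left out, and the other alternatives gave counts within 1.5 times. Log2 fold changes of the 4 named genes did not change sign in any alternative run, and ENSRNOG00000000606 has no value where genes with a restored count were left out. Genes without overlap, 103, were 91 with library totals, 92 in FPKM and 137 to 399 with 1 animal left out. Genes with an interval within 1.5-fold numbered 11398 to 13186 over 11 alternatives, limma-voom included, and 12726 to 12989 with 1 animal left out. The ratio of the SD of DC + Lixi to that of DC, 0.985 in the median, ranged from 0.936 to 1.08. With 1 animal left out, the difference in RNA integrity ranged from -0.55 to -0.35, in RNA concentration from 18.8 to 88.4 ng/µl, in alignments from 2593390 to 5809410 and in absorbance ratio from -0.0053 to 0.0067. By medians the absorbance ratio differed by -0.005, where the means differed by 0.0017. With all tested genes in the components, the differences on the second and on the third were 0.013 and 0.014, with an adjusted p of 0.898 each by exact permutation, where the sign of a component is arbitrary. With 1 animal left out and the scores kept, the difference on the second ran from -0.036 (without DC 390) to 0.032 (without DC 430), and on the third from -0.065 (without treated 401) to -0.0039 (without DC 407). Alternatives for the interval, the whole-library measures and the SD, and those that left out an animal from the count without overlap, were chosen after seeing the data. The causes of these changes were not tested. With 6 animals a group, small differences of genes below 1 FPKM were not detectable.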
